A study of Arabidopsis thaliana with 20 samples.

Results

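The transcripts described here are those whose level in cultured Arabidopsis cells was lower after 24 h and after 36 h at 4 °C than at 22 °C. They were selected on the arrays taken before cordycepin was added: a probe set entered if its log2 intensity lay at least 1 below the 22 °C array, a 2-fold difference, on both the 24 h and the 36 h array, and if it reached an intensity of 61.4 on 2 or more of the 20 arrays. This rule gave 352 probe sets of 12846 past the intensity minimum and of 22810 on the array. Of the 352, 38 were already at least 1 lower after 6 h of cold, and 314 were not. The 4 arrays that chose and split them can therefore describe but not test the lowering. Of the 352 probe sets, 183 name 1 gene, 5 name several and 164 are not named here.

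The cells were T87, a suspension line derived from the Columbia accession (Col-0) and kept in liquid medium. The cold cells had spent 6, 12, 24 or 36 h at 4 °C in dimmer light, and the control cells stayed at 22 °C in constant light. Each of these 5 cultures was then given cordycepin, an adenosine analogue that stops growing RNA chains, and was sampled over 12 h in the cold, every 4 h from 0 h, and over 4 h at 22 °C, at 0, 0.5, 2 and 4 h. Every combination of temperature, time in the cold and time in cordycepin is 1 Affymetrix ATH1 array. No condition has a replicate, the light differed along with the temperature, and time in the cold ran with time in culture. The growth protocol lists 12, 24 and 36 h of cold, while titles and design also give 6 h, which was kept. A culture of one line lacks the organs and most cell types of a plant. Of 7 genes of dividing cells, the 3 named on the array lay between 122 and 4460, and the 3 named of 15 genes of differentiated cell types lay between 12.2 and 22.4, below the minimum on all arrays.

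The primary wall of a growing plant cell is a network of cellulose and xyloglucan set in pectin. Expansins loosen it, endo-1,4-β-glucanases of family GH9 cut cellulose, pectate lyases cut pectin, and xyloglucan endotransglucosylase/hydrolases (XTH) cut and rejoin xyloglucan. Cold slows growth and division and sets off a wide change of the transcriptome. A transcript's level falls when it is made more slowly or decays faster, and the change after cordycepin, once synthesis has stopped, follows decay. In RNA from a whole culture, fewer cells of a type and less RNA per cell cannot be told apart.

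The intensities were normalised between arrays, so each value tells a transcript's place among the others of its array, and the loss of total mRNA after cordycepin is not in them. The median log2 intensity of the 12846 probe sets was 7.68 on the 22 °C array without cordycepin and 7.63, 7.42 and 7.30 after 0.5, 2 and 4 h of cordycepin at 22 °C, and it lay between 7.65 and 7.72 on the 16 cold arrays. The 22 °C arrays with cordycepin thus stand apart from the cold ones, and centring each array on its median lowered every 24 h and 36 h level difference below by 0.30 and raised every 22 °C slope by 0.038. The number of arrays limits the precision.

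Before cordycepin, the lowering built up over the first 24 h of cold and then eased. The median log2 difference of the 352 probe sets from the 22 °C array was -0.45 at 6 h, -1.08 at 12 h, -1.57 at 24 h and -1.23 at 36 h, against -0.03, -0.11, -0.12 and -0.09 for the 12846 tested. The 24 h and 36 h values follow from the rule. At 6 h the 38 early probe sets were at least 1 below the 22 °C array by definition, where 0.701% of all tested were. At 12 h, an array that chose nothing but is set against the same 22 °C array, 195 of the 352 (55.4%) were at least 1 below it, against 2.94% of all tested. The lowest of the 4 cold values came at 24 h for 285 probe sets, at 36 h for 44, at 12 h for 22 and at 6 h for 1. This was not counted over all tested, of which 5.78% were at least 1 below the 22 °C array at 24 h and 3.18% at 36 h. At 36 h 303 of the 352 stood above their own 24 h value, 20 of them by at least 1 on the log2 scale, a count not made over all tested. The 49 below it were 13.9% of the set, against 46.5% of all tested. Both of these arrays chose the set.

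**Figure D1:**
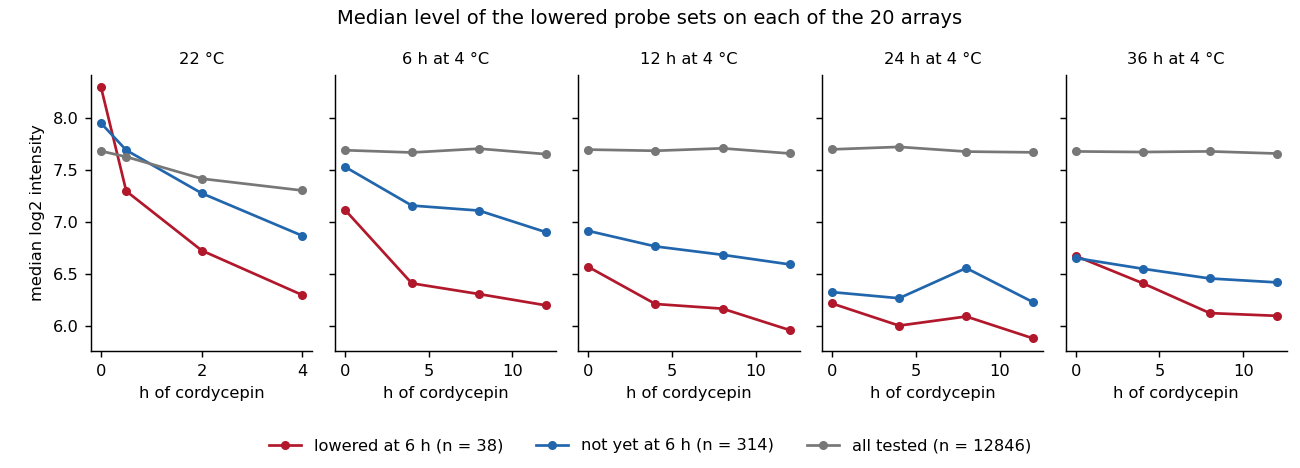
Median log2 intensity of the 38 probe sets already lowered at 6 h (red), the 314 not yet lowered at 6 h (blue) and all 12846 tested (grey) on each of the 20 arrays, 1 panel per series, against hours of cordycepin; the time axes differ at 22 °C and in the cold. Before cordycepin the early probe sets had medians of 8.30 at 22 °C, 7.12 at 6 h, 6.57 at 12 h, 6.21 at 24 h and 6.67 at 36 h, and the late ones 7.95, 7.53, 6.91, 6.32 and 6.65.

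Most of the set changed by a modest factor. At both 24 h and 36 h 265 probe sets lay between 1 and 2 below the 22 °C array, and 19 lay at least 2 below at both, a 4-fold difference or more. On all 20 arrays 180 of the 352 stayed at or above the intensity minimum, while 94 were under it on both the 24 h and the 36 h array without cordycepin and 4 on the 22 °C array. For those 94 the factor rests on values under the minimum. Nearest to the limit inside it were ZCF125 (-1.0001 at 24 h and -1.0076 at 36 h), AT5G05250 (-1.4794 and -1.0012) and ICU2 (-1.2441 and -1.0070). Just outside it were AT5G56850 (-1.3003 and -0.9999), OPS (-1.5016 and -0.9959) and AT1G23790 (-1.2149 and -0.9905).

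Whether the lowering held on arrays that the rule did not use was tested on the 15 arrays with cordycepin. These are later samples of the same unreplicated series and may share their cultures with the arrays that chose the set. A difference between cultures would then carry over into the test, whose error holds no spread between cultures. In limma each series had its own line on hours of cordycepin, and the level of a series is the height of its line at 0 h. The 24 h and 36 h levels together lay below the 22 °C level for 265 of the 352 probe sets (75.3%; Benjamini-Hochberg adjusted p under 0.05, two-sided), against 38.2% of all tested. They lay above it for 12 (3.41%), against 27.4% of all tested, and 75 were not called. Of the 352, 15 reached the intensity minimum on no cold array and so passed it through the 22 °C arrays alone, and without such probe sets 251 of 337 (74.5%) were called lower, against 37.7% of all tested. The median log2 difference was -1.16 for the set and -0.17 for all tested. It was called lower for 25 of the 38 early probe sets and for 240 of the 314 late ones. Without the 24 h array at 4 h of cordycepin, 162 of the 352 were called lower (46.0%), against 20.1% of all tested.

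The same fit gave the earlier course. The 6 h level was lower than the 22 °C level for 77 of the 352 (14.9% of all tested), 15 of them early and 62 late. It was higher for 19, a count given without the share of all tested. Without the 6 h array at 4 h of cordycepin the lower count was 0 (0% of all tested) and without the one at 12 h it was 34 (4.51%). With each array centred on its median 154 were lower (43.8%), against 44.4% of all tested, so the set did not then stand above the array as a whole. The 12 h level was lower for 183 (30.1% of all tested). It was lower for 7 without the 12 h array at 4 h of cordycepin (0.304% of all tested), 67 without the one at 12 h (7.51%) and 109 without the 22 °C array at 0.5 h (20.3%). The 24 h and 36 h level was below the 6 h level for 57, 2 early and 55 late (2.46% of all tested). Each of the 15 arrays, left out in turn, moved that last count by over 1.5 times, to between 0 (0% of all tested) and 183 (8.24%).

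**Figure D2:**
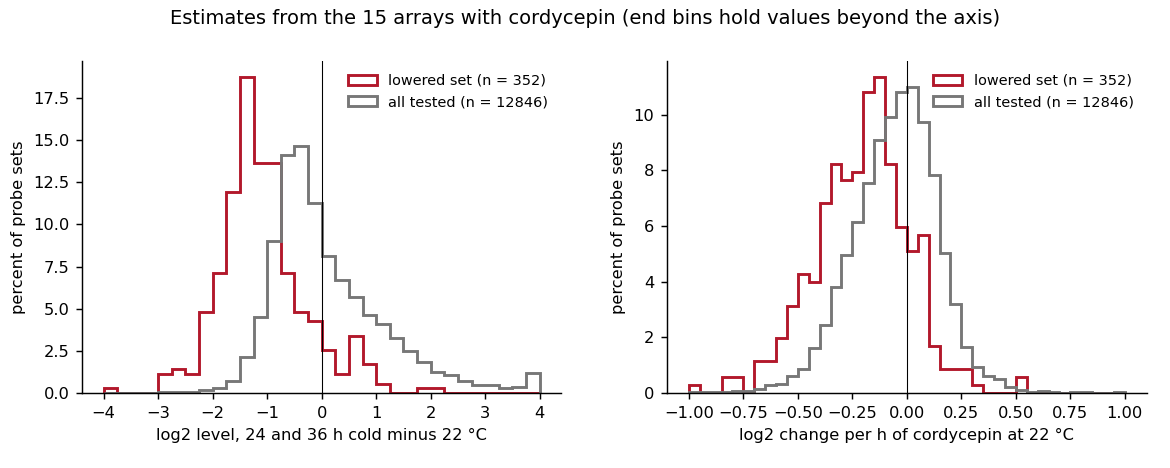
Percent of probe sets by limma estimate from the 15 arrays with cordycepin, for the lowered set (red, n = 352) and all tested (grey, n = 12846). Left, log2 level of the 24 and 36 h series minus the 22 °C level, with medians of -1.16 and -0.17; right, log2 change per hour of cordycepin at 22 °C, with medians of -0.19 and -0.04.

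At a matched 4 h of cordycepin, 123 of the 352 (34.9%) were at least 1 lower on the 24 h cold array than on the 22 °C array, against 12.2% of all tested. On the 36 h cold array 86 were (24.4%), against 11.9% of all tested. These are single arrays, without a test.

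Pectate lyase-like genes were the family with most of its measured genes in the set. These families were assembled by hand after the members had been seen, so their counts describe and do not test. Among probe sets with 1 gene, 183 of 7005 tested (2.61%) are members. Of 7 pectate lyase-like genes measured, 5 belong to the set, all of them late, and the family's median log2 level difference was -1.86, against -0.16 for all 7005. AT4G24780, the brightest of them, had 7166 at 22 °C, 4372 at 6 h, 3094 at 12 h, 1192 at 24 h and 1689 at 36 h before cordycepin. With cordycepin it read 887, 1395 and 867 on the 24 h arrays and 1702, 1335 and 1245 on the 36 h arrays, against 4805, 2765 and 1589.7 at 22 °C. Every 24 h and 36 h value with cordycepin lay below the 22 °C values at 0.5 h and 2 h. The 36 h array at 4 h of cordycepin read above the 22 °C array at 4 h. The mean fall at 0 h was 5.05-fold, and the tested level difference was -1.94 ± 0.27 (log2, SE; limma adjusted p = 0.000205). Without the 24 h array at 4 h of cordycepin it was -1.05, still called.

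AT3G27400, a second pectate lyase-like gene, had 3578 at 22 °C, 1994 at 6 h, 1436 at 12 h, 939 at 24 h and 1048 at 36 h before cordycepin. Its values with cordycepin were 796, 933 and 749.5 on the 24 h arrays and 853, 815 and 755 on the 36 h arrays, against 3568, 2655 and 2254 at 22 °C. On these arrays with cordycepin the 24 h and 36 h values did not overlap those at 22 °C. Its level was lower by the test (-2.04 ± 0.15; limma adjusted p = 2.82e-06). AT3G53190 (-1.86 ± 0.41; limma adjusted p = 0.00255) and AT1G04680 (-2.12 ± 0.29; limma adjusted p = 0.000173) were lower as well. AT1G67750 was the dimmest, with 86.5 at 22 °C, 76.0 at 6 h, 45.3 at 12 h, 35.8 at 24 h and 34.3 at 36 h, and passed too (-1.29 ± 0.32; limma adjusted p = 0.00530). Without the 24 h array at 4 h of cordycepin AT3G53190 (-0.53) and AT1G67750 (-0.60) were not called and AT1G04680 was at -1.29, and AT1G67750 was not called without the 22 °C array at 0.5 h (-0.70). The remaining genes of the family went elsewhere. AT3G09540 stood at 31.1 on the 22 °C array without cordycepin, under the intensity minimum, and above that minimum at 24 h and 36 h. Its higher level in the cold (1.70 ± 0.31) is therefore a description only, with no test. AT3G55140 was not called (0.05 ± 0.14; limma adjusted p = 0.755).

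Of 6 GH9 endoglucanases measured, 4 belong to the set, GH9B6 and GH9C2 early and GH9B13 and GH9B8 late. GH9C2 had 1015 at 22 °C, 460.4 at 6 h, 273 at 12 h, 125 at 24 h and 211 at 36 h before cordycepin. After cordycepin the readings were 123, 154 and 129.9 on the 24 h arrays and 219.8, 189.6 and 194 on the 36 h arrays, against 495, 431 and 339 at 22 °C. All 6 of these cold values were under all 3 at 22 °C, and the level was lower (-1.63 ± 0.19; limma adjusted p = 6.98e-05). GH9B6 was dimmer, with 181 at 22 °C, 49.1 at 6 h, 39.9 at 12 h, 25.1 at 24 h and 28.0 at 36 h. It passed the minimum through the 22 °C arrays alone, so no test of its level is given. GH9B13 fell mainly between 12 h and 24 h of cold, with 777 at 22 °C, 694 at 6 h, 590.0 at 12 h, 217 at 24 h and 281 at 36 h. It was lower by the test (-2.26 ± 0.39; limma adjusted p = 0.000617), with -1.10 and still called without the 24 h array at 4 h of cordycepin. Among the other two, GH9A3 was also lower in level (-0.84 ± 0.16; limma adjusted p = 0.00126) and GH9B7 was not called (-0.15 ± 0.15; limma adjusted p = 0.399).

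GH9B8 is a case of its own. It stood at 40.4 on the 22 °C array without cordycepin, under the intensity minimum, and entered through the later 22 °C arrays, which read 38.1 at 0.5 h, 68.8 at 2 h and 139.6 at 4 h of cordycepin. The 8 cold arrays of the 24 h and 36 h series read between 11.8 and 19.7. Since it passed the minimum only through the 22 °C arrays at 2 h and 4 h, its values are given with no test.

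Of 7 expansin and expansin-like genes, 3 belong to the set. EXPA4, an alpha-expansin, fell the most of the 3, with 6356 at 22 °C, 2529 at 6 h, 1009 at 12 h, 356 at 24 h and 884 at 36 h before cordycepin. On the cordycepin arrays it had 269, 495 and 232 on the 24 h arrays and 1008, 740.1 and 606 on the 36 h arrays, against 3663, 1779 and 952 at 22 °C. At 24 h it was down 17.9-fold and at 36 h 7.19-fold on the arrays that chose it, and the 36 h array at 4 h of cordycepin read above the 22 °C array at 4 h. The tested level difference was -2.62 ± 0.40 (log2, SE; limma adjusted p = 0.000307). EXPB3, a beta-expansin, had 262 at 22 °C, 152 at 6 h, 62.2 at 12 h, 42.5 at 24 h and 66.6 at 36 h before cordycepin. It read 36.0, 63.6 and 31.9 on the 24 h arrays and 65.5, 56.7 and 68.6 on the 36 h arrays, against 372, 439.6 and 347 at 22 °C, so the 22 °C values stayed up after cordycepin and no 24 h or 36 h value came near them (-2.92 ± 0.44; limma adjusted p = 0.000283). EXPA15 was dimmer, with 97.8 at 22 °C, 80.9 at 6 h, 42.2 at 12 h, 36.0 at 24 h and 47.4 at 36 h, and was also lower (-0.97 ± 0.27; limma adjusted p = 0.00946). With the 24 h array at 4 h of cordycepin left out, EXPA4 was at -1.30 and EXPB3 at -1.71, both still called, and EXPA15 was not called there (-0.97) or without the 36 h array at 4 h (-0.90). EXPA15 was at -1.78 without the 22 °C array at 0.5 h and -0.61 without the one at 4 h, still called.

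The rest of the wall-loosening genes did not follow these. EXPA20 was lower in level (-0.87 ± 0.20; limma adjusted p = 0.00305), but by under 1 at 24 h and 36 h before cordycepin. The expansin-like genes EXLA1, EXLA2 and EXLA3 were all higher in the cold. EXLA3 was under the intensity minimum at 22 °C before cordycepin (51.8), so it is described only. EXLA1 had 158 at 22 °C, 1035 at 6 h, 1511 at 12 h, 2138 at 24 h and 1927 at 36 h before cordycepin (4.62 ± 0.28; limma adjusted p = 7.68e-07). None of the 5 XTH genes measured is in the set. XTH18, XTH19 and XTH20 stood at 37.4, 13.8 and 14.2 on the 22 °C array without cordycepin, under the intensity minimum. They reached that minimum in the cold, so no test of their levels is given. XTH18 had 37.4 at 22 °C, 412 at 6 h, 853 at 12 h, 826 at 24 h and 1045 at 36 h. EXGT-A3, also an XTH gene, had 1888 at 22 °C and was called higher (2.63 ± 0.26; limma adjusted p = 2.08e-05). XTH33 is the exception to a plain rise: it had 178 at 22 °C, 136 at 6 h, 132 at 12 h, 171 at 24 h and 162 at 36 h, under its 22 °C value on all 4 cold arrays, and was called higher on the arrays with cordycepin (0.80 ± 0.22; limma adjusted p = 0.00881). Neither EXPA20 (-0.50) nor XTH33 (0.57) was called without the 36 h array at 4 h of cordycepin, and XTH33 was at 1.39 without the 22 °C array at 0.5 h.

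**Figure D3:**
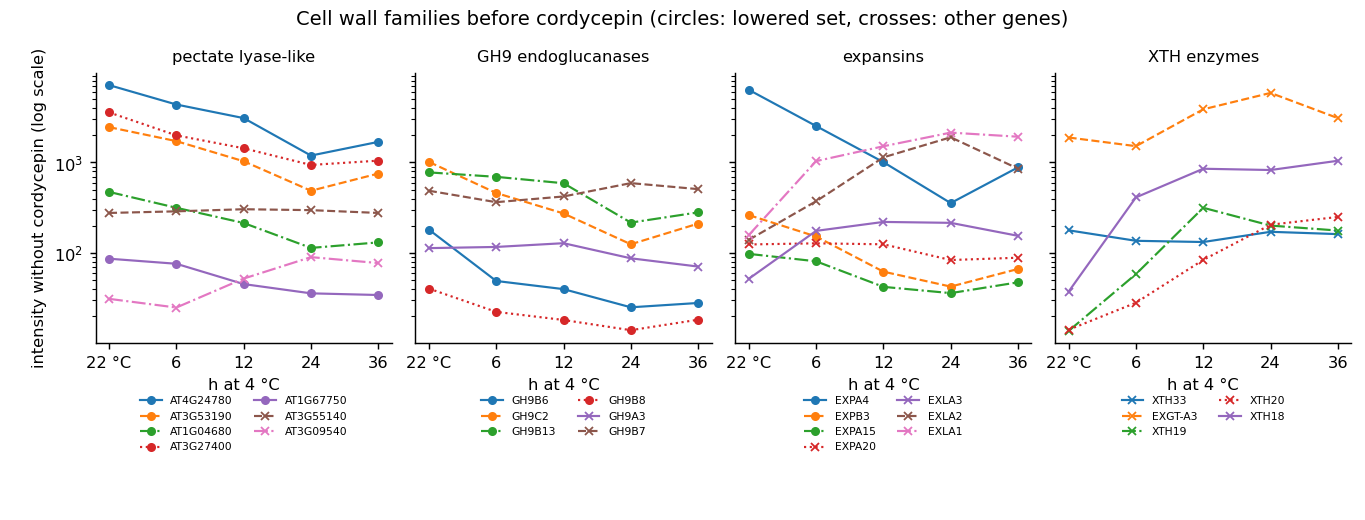
Intensity before cordycepin (log axis) at 22 °C and after 6, 12, 24 and 36 h at 4 °C for the measured genes of 4 wall families, 1 array per point. Circles are genes of the lowered set (5 of 7 pectate lyase-like genes, 4 of 6 GH9 endoglucanases, 3 of 7 expansins, 0 of 5 XTH genes) and crosses are the other genes of each family.

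Other pectin genes were in the set too. AT1G02810, a pectin methylesterase, belongs to the early group, with 119 at 22 °C, 45.0 at 6 h, 36.0 at 12 h, 29.2 at 24 h and 35.4 at 36 h, and passed the minimum through the 22 °C arrays alone, so no test of its level is given. AT2G01610 and AT1G62770 are of the family of invertase and pectin methylesterase inhibitors. AT1G62770 had 933 at 22 °C, 872 at 6 h, 686 at 12 h, 229 at 24 h and 348 at 36 h, close to its 22 °C level at 6 h and far under it at 24 h (-1.57 ± 0.35; limma adjusted p = 0.00270). AT2G01610 had 244 at 22 °C, 128 at 6 h, 100.1 at 12 h, 81.6 at 24 h and 65.5 at 36 h and its lowest value at 36 h (-2.33 ± 0.20; limma adjusted p = 7.86e-06). AT3G59850 and AT3G15720, pectin lyase-like genes of the polygalacturonase type, were lower as well (-1.44 ± 0.40 and -1.35 ± 0.18; limma adjusted p = 0.00875 and 0.000126). The calls of AT1G62770 and AT3G59850 were lost without the 22 °C array at 0.5 h (-0.99 and -0.63), without the 24 h array at 4 h of cordycepin (-0.53 and -0.63) and without the 36 h array at 4 h (-1.46 and -1.52).

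Of the named genes of the set, AT1G03820, which codes for an E6-like protein, was lowered the most. It had 1560.2 at 22 °C, 378 at 6 h, 283 at 12 h, 70.5 at 24 h and 126 at 36 h before cordycepin, 16.6-fold lower over the 24 h and 36 h arrays. With cordycepin it read 58.7, 83.8 and 39.7 on the 24 h arrays and 88.3, 70.2 and 70.0 on the 36 h arrays, against 1194, 538 and 343 at 22 °C. On these arrays with cordycepin no 24 h or 36 h value overlapped the 22 °C values. The tested difference was -3.83 ± 0.37 (log2, SE; limma adjusted p = 1.97e-05). AT1G28400 fell late within the early group, with 3931 at 22 °C, 1891 at 6 h, 1777 at 12 h, 453 at 24 h and 710.2 at 36 h, with little change between 6 h and 12 h (-2.82 ± 0.32; limma adjusted p = 5.95e-05). AT3G29970, of the B12D family, had 549 at 22 °C, 245 at 6 h, 103 at 12 h, 37.0 at 24 h and 211 at 36 h, and its 36 h value was well above its 24 h value (-2.36 ± 0.42; limma adjusted p = 0.000739). Both stayed called without the 24 h array at 4 h of cordycepin, at -1.78 for AT1G28400 and -1.21 for AT3G29970.

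The other early genes among the 10 lowest of that class over 24 h and 36 h were AT4G18630, AT4G32290, AT5G26790 and AT5G40910. AT4G32290, a glycosyltransferase of the core-2/I-branching type, had 405 at 22 °C, 149 at 6 h, 93.9 at 12 h, 67.6 at 24 h and 82.9 at 36 h (-1.35 ± 0.27; limma adjusted p = 0.00150). AT5G40910, a TIR-NBS-LRR immune receptor gene, had 199.5 at 22 °C, 82.9 at 6 h, 42.2 at 12 h, 32.4 at 24 h and 49.4 at 36 h (-1.13 ± 0.29; limma adjusted p = 0.00654). AT5G26790 was lower (-0.97 ± 0.25; limma adjusted p = 0.00658), and AT4G18630 only just passed (-0.89 ± 0.35; limma adjusted p = 0.0454). Of the aspartyl proteases in the early group, AT3G61820 was the brighter, with 3288 at 22 °C, 1256 at 6 h, 1022 at 12 h, 734 at 24 h and 643 at 36 h (-1.67 ± 0.16; limma adjusted p = 1.87e-05), and AT5G48430 was lower by less (-0.73 ± 0.20; limma adjusted p = 0.00803). Of these, AT3G61820 kept its call with any 1 array left out. Without the 22 °C array at 0.5 h the others were not called, at -0.84 for AT4G32290, -0.48 for AT5G40910, -0.57 for AT5G26790, -0.68 for AT5G48430 and 0.18 for AT4G18630. Leaving out the 24 h array at 4 h of cordycepin also ended the calls of AT4G32290 (-0.87), AT5G26790 (-0.93), AT5G48430 (-0.54) and AT4G18630 (-0.39), and leaving out the 36 h array at 4 h that of AT5G48430 (-0.79). AT4G18630 lost its call without any 1 of 11 of the 15 arrays.

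**Figure D4:**
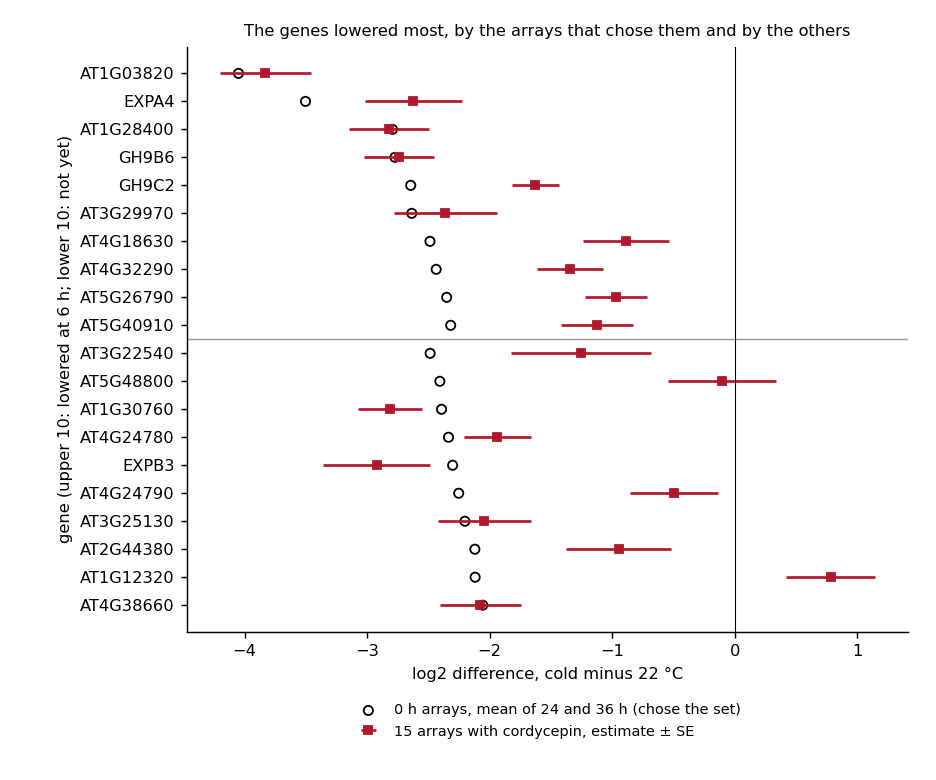
Log2 difference, cold minus 22 °C, of the 10 early genes (above the line) and the 10 late genes (below it) with the lowest mean of 24 h and 36 h before cordycepin. Open circles are the 0 h arrays that chose the set, and squares the limma estimates ± SE from the 15 arrays with cordycepin (for GH9B6 a description only). AT1G03820 stood at -4.05 and -3.83, while AT5G48800 stood at -2.41 and -0.11, and AT1G12320 at -2.12 and 0.78.

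Among late genes, AT1G30760 codes for a berberine bridge enzyme-like protein, one of a family of flavin-dependent oxidases. It had 627 at 22 °C, 374 at 6 h, 157 at 12 h, 102 at 24 h and 139.9 at 36 h before cordycepin. Its values with cordycepin were 87.2, 126 and 93.2 on the 24 h arrays and 114, 105 and 101 on the 36 h arrays, against 712, 565 and 452 at 22 °C. On these arrays with cordycepin the 24 h and 36 h values did not overlap those at 22 °C (-2.81 ± 0.26; limma adjusted p = 1.50e-05). Of 8 genes of this family measured, AT2G34810 (early, -1.54 ± 0.30; limma adjusted p = 0.00138) and AT5G44400 (late, -2.13 ± 0.12; limma adjusted p = 4.96e-07) are the other members. AT2G34810 was not called without the 22 °C array at 0.5 h (-1.11) or without the 24 h array at 4 h of cordycepin (-0.88). AT4G20830 and AT4G20860 were higher in the cold (1.64 ± 0.11 and 2.85 ± 0.35; limma adjusted p = 1.73e-06 and 8.75e-05).

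Of 8 thaumatin-like genes, AT4G38660 and ATLP-1 belong to the set. AT4G38660 had 371 at 22 °C, 282 at 6 h, 142 at 12 h, 66.0 at 24 h and 120.3 at 36 h (-2.08 ± 0.33; limma adjusted p = 0.000386; -1.04 and still called without the 24 h array at 4 h of cordycepin), and ATLP-1 had 1079 at 22 °C, 860.5 at 6 h, 604 at 12 h, 456 at 24 h and 478 at 36 h (-1.56 ± 0.13; limma adjusted p = 7.11e-06). In level 3 of the 8 were called lower and 5 higher, against 38.2% and 27.4% of all tested, so the family as a whole did not share a direction. AT5G02140, among the 5 higher, stood at 30.2 on the 22 °C array without cordycepin, under the intensity minimum, so its call is a description only. Of 5 LRR I receptor kinases, cell-surface kinases with leucine-rich repeats, 3 belong to the set. AT1G51850 had 639 at 22 °C, 334 at 6 h, 224 at 12 h, 259 at 24 h and 271 at 36 h, and AT1G51790 had 274 at 22 °C, 162 at 6 h, 102 at 12 h, 121 at 24 h and 118 at 36 h. Both reached their lowest value at 12 h and were lower by the test (-1.02 ± 0.15 and -0.89 ± 0.17; limma adjusted p = 0.000228 and 0.00117). AT1G05700 kept falling to 24 h, with 148 at 22 °C, 102 at 6 h, 76.1 at 12 h, 54.5 at 24 h and 62.1 at 36 h (-1.30 ± 0.18; limma adjusted p = 0.000176). AT1G51820, a gene of the same family, was higher (1.34 ± 0.17; limma adjusted p = 0.000102).

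Of 3 genes of DNA replication measured, ICU2 and POLA3 belong to the set, both late, while none of 5 genes of the cell division list or of 2 core histone genes does. ICU2 is the catalytic subunit of DNA polymerase alpha, which starts new DNA strands together with its primase, of which POLA3 is a subunit. POLA3 had 549.9 at 22 °C, 545 at 6 h, 283 at 12 h, 156 at 24 h and 266 at 36 h before cordycepin, with 6 h close to 22 °C. After cordycepin the readings were 128, 234 and 145 on the 24 h arrays and 276, 195 and 201 on the 36 h arrays, against 595, 337 and 282 at 22 °C. The 22 °C array at 4 h came close to the brightest cold values, and the level was lower (-1.52 ± 0.37; limma adjusted p = 0.00454). ICU2 had 193 at 22 °C, 178 at 6 h, 127 at 12 h, 81.6 at 24 h and 96.2 at 36 h and was also lower (-1.36 ± 0.25; limma adjusted p = 0.000996). PRL, a subunit of the MCM helicase that unwinds DNA at replication, missed the rule at 36 h with 539 at 22 °C, 499.8 at 6 h, 307 at 12 h, 191 at 24 h and 285 at 36 h, and its level was lower (-1.56 ± 0.27; limma adjusted p = 0.000680). ATIM, a Timeless protein of the replication fork, and FANCM, a DNA helicase of repair, were picked out by symbol and are members too (-0.99 ± 0.37 and -1.17 ± 0.29; limma adjusted p = 0.0332 and 0.00506). Without the 22 °C array at 0.5 h the members were not called, at -0.94 for POLA3, -0.94 for ICU2, -0.15 for ATIM and -0.79 for FANCM. Nor were they without the 24 h array at 4 h of cordycepin, at -0.48 for POLA3, -0.77 for ICU2, -0.26 for ATIM and -0.45 for FANCM, while PRL was called there at -0.83. FANCM lost its call without the 36 h array at 4 h too (-1.24), and ATIM without any 1 of the 36 h arrays.

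Motor and cytoskeletal genes were represented by few members. Of 27 kinesins, motors that walk on microtubules, only ZCF125 is in the set. It had 441 at 22 °C, 343 at 6 h, 260.0 at 12 h, 221 at 24 h and 219 at 36 h before cordycepin (-0.77 ± 0.18; limma adjusted p = 0.00324). ZCF125 was not called without the 22 °C array at 0.5 h (-0.48) or without the 24 h array at 4 h of cordycepin (-0.71). In level 20 of the 27 kinesins were called lower, against 38.2% of all tested, 1 was called higher and 6 were not called, with a median of -0.77. Of 8 NET genes, which link actin to membranes, NET1A and NET3C are members (-1.29 ± 0.16 and -1.28 ± 0.26; limma adjusted p = 0.000111 and 0.00170). Of the 8, 4 were called higher, against 27.4% of all tested. NET3C was not called without the 22 °C array at 0.5 h (-0.82). NRPC1, the largest subunit of RNA polymerase III, which makes transfer RNAs and 5S ribosomal RNA, had 76.2 at 22 °C, 64.8 at 6 h, 33.8 at 12 h, 35.3 at 24 h and 37.5 at 36 h (-1.65 ± 0.22; limma adjusted p = 0.000132). It is the only member among 12 RNA polymerase subunits. Of these 11 were called lower, against 38.2% of all tested, and 0 higher, against 27.4%, with a median of -0.69.

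Members of other roles were spread over signalling, metabolism and protein turnover. POL, a protein phosphatase of the stem cell pathway, had 545 at 22 °C, 287 at 6 h, 215 at 12 h, 234 at 24 h and 264 at 36 h (-0.99 ± 0.16; limma adjusted p = 0.000390). RALFL34 codes for a secreted signalling peptide and was lowest at 36 h, with 349 at 22 °C, 238 at 6 h, 231 at 12 h, 150.3 at 24 h and 134 at 36 h (-1.30 ± 0.17; limma adjusted p = 0.000130). QKY acts in cell-to-cell signalling in organ shape and passed narrowly (-0.60 ± 0.24; limma adjusted p = 0.0494). CPI1, an isomerase of sterol synthesis, had 327 at 22 °C, 253 at 6 h, 162 at 12 h, 144 at 24 h and 147 at 36 h (-1.60 ± 0.18; limma adjusted p = 4.48e-05). LHCB4.2, a minor antenna protein of photosystem II, fell mainly between 12 h and 24 h, with 247 at 22 °C, 259.6 at 6 h, 215 at 12 h, 83.8 at 24 h and 114 at 36 h (-1.30 ± 0.27; limma adjusted p = 0.00173). AT5G67510, a ribosomal protein L26 gene, was lower (-1.14 ± 0.17; limma adjusted p = 0.000261), as was the ubiquitin-specific protease UBP21 (-0.90 ± 0.27; limma adjusted p = 0.0120). The ubiquitin ligase LUL4 was not called (-0.80 ± 0.35; limma adjusted p = 0.0624). QKY lost its call without any 1 of 12 of the 15 arrays and was at 0.17 without the 22 °C array at 0.5 h. UBP21 was not called without that array (-0.58), the 24 h array at 4 h of cordycepin (-0.33) or the 36 h array at 4 h (-0.91), nor was LHCB4.2 without the 24 h array at 4 h (-0.54). LUL4 was called lower without any 1 of 4 arrays, at -0.88 to -1.11.

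For several genes lowered at 0 h the difference did not pass the test on the arrays with cordycepin. AT5G48800, of the NPH3 family of signalling proteins, had 445 at 22 °C, 283 at 6 h, 178 at 12 h, 48.8 at 24 h and 144 at 36 h before cordycepin. On the cordycepin arrays it had 52.8, 105 and 50.0 on the 24 h arrays and 122, 88.1 and 72.9 on the 36 h arrays, against 118, 86.8 and 96.6 at 22 °C. The groups overlapped, and the tested difference was -0.11 ± 0.44 (limma adjusted p = 0.844). AT1G36060, an AP2/ERF transcription factor, was bright, with 3442 at 22 °C, 2468 at 6 h, 1073 at 12 h, 782 at 24 h and 1408 at 36 h, and was not called (-0.13 ± 0.32; limma adjusted p = 0.744). AT3G22540 (-1.25 ± 0.57; limma adjusted p = 0.0734), AT4G24790, the neighbour of AT4G24780 (-0.50 ± 0.36; limma adjusted p = 0.245), AT2G44380 (-0.95 ± 0.43; limma adjusted p = 0.0737) and AT1G12320 (0.78 ± 0.36; limma adjusted p = 0.0778) were not called either. These estimates turned on single arrays of the 24 h series. Without its array at 4 h of cordycepin AT5G48800 (1.27), AT1G36060 (0.91) and AT1G12320 (1.599) were called higher, and AT3G22540 (0.50) and AT4G24790 (0.46) were above 0 and not called. Without its array at 12 h AT5G48800 (-0.79), AT1G36060 (-0.64), AT3G22540 (-2.13), AT4G24790 (-0.98) and AT2G44380 (-1.25) were called lower. Leaving out the 22 °C array at 0.5 h put AT5G48800 at 0.40 and AT2G44380 at 0.32. AT3G22540 and AT2G44380 were also called lower without the 22 °C array at 2 h or 4 h or the 24 h array at 8 h, at -1.42 to -1.56 and -1.02 to -1.52.

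All 12 probe sets called higher in level lost at least 1 log2 unit in the first 0.5 h of cordycepin at 22 °C, where 6.39% of all tested did. Their changes lay between -1.56 and -3.62 with a median of -2.01. The 75 not called had a median of -1.13 over that 0.5 h, and the 265 called lower had -0.14, with 13 of them at least 1 down. The 0 h array at 22 °C chose the members for being high there, so this first step is not independent of the rule. A member, low in the cold by the rule, could hardly be called higher without such a drop. The pattern therefore follows largely from the rule and the call and is no separate result. The first step also is not in the fit, which starts at 0.5 h. WRKY22, a transcription factor of defence responses, had 197 at 22 °C, 194 at 6 h, 54.9 at 12 h, 82.4 at 24 h and 88.0 at 36 h before cordycepin and then 44.0 at 0.5 h, 16.5 at 2 h and 17.3 at 4 h at 22 °C. The cold arrays of 24 h read 43.4, 56.7 and 29.5, above the later 22 °C values, and its fitted level was higher (1.24 ± 0.47; limma adjusted p = 0.0384). That call was lost without any 1 of 8 of the 15 arrays and with each array centred on its median (0.94). Its estimate ran from 0.63 without the 22 °C array at 4 h to 2.59 without the one at 0.5 h.

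AT2G14460 had 273 at 22 °C, 98.7 at 6 h, 80.1 at 12 h, 66.3 at 24 h and 98.6 at 36 h before cordycepin and 22.3 at 0.5 h, 14.97 at 2 h and 16.8 at 4 h of cordycepin at 22 °C, so the fall took place before the first array of the fit (2.03 ± 0.41; limma adjusted p = 0.00164). AT1G80450, AT4G12010 (an immune receptor gene of the TIR-NBS-LRR type) and UGT85A2 (a glycosyltransferase) were called higher too (1.01 ± 0.28, 0.68 ± 0.23 and 0.60 ± 0.19; limma adjusted p = 0.00910, 0.0246 and 0.0156). With all 20 arrays in the fit, which then holds the 0 h arrays, the estimates were -0.07 for WRKY22, 0.04 for AT2G14460, -0.50 for AT1G80450, -0.55 for AT4G12010 and -0.41 for UGT85A2. Without the 36 h array at 4 h of cordycepin AT2G14460 (1.29), AT1G80450 (0.78) and UGT85A2 (0.52) were not called, and without the 24 h array at 4 h UGT85A2 (0.31) and AT4G12010 (0.79) were not. AT4G12010 was not called without the 22 °C array at 4 h (0.53), the 24 h array at 12 h (0.62) or the 36 h array at 12 h (0.50) either. It was called at 1.04 without the 36 h array at 4 h, as AT1G80450 was at 1.59 without the 22 °C array at 0.5 h. Centring ended the calls of AT4G12010 (0.38) and UGT85A2 (0.30), and means of 3 arrays in place of intercepts did so at 0.07 and 0.09.

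At 22 °C the set lost signal after cordycepin more often than the array as a whole. From 0.5 to 4 h, 190 of the 352 fell in normalised intensity, not centred on the array median (54.0%; limma, adjusted p under 0.05), against 32.0% of all tested, and 13 rose (3.69%), against 16.6%. The median slope was -0.19 log2 units per hour for the set and -0.04 for all tested. Among early probe sets 25 of 38 fell. Of the 265 lower in level, 151 also fell at 22 °C. The same joint count was not made over all tested, so it tells nothing of a link between these calls. Without the 22 °C array at 0.5 h, 49 fell (13.9%), against 8.98% of all tested. Without the one at 4 h, 131 fell (37.2%), against 23.4% of all tested.

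The steepest named falls at 22 °C were in AT2G44370, AT3G02120, AT4G21820, AT3G29970, AT3G59850 and AT5G05180. AT2G44370, a gene with DC1 domains, read 1017 at 0.5 h, 364 at 2 h and 153 at 4 h of cordycepin at 22 °C, a slope of -0.77 ± 0.087 per hour (limma adjusted p = 0.000115). In the cold series of 24 h it read 607, 732 and 343 at 4, 8 and 12 h. Its neighbour AT2G44380, also of the DC1 type, had a slope of -0.30 ± 0.12 and was not called (limma adjusted p = 0.0530). AT3G02120 read 578 at 0.5 h, 278 at 2 h and 106 at 4 h, and AT5G05180 read 687 at 0.5 h, 283 at 2 h and 143 at 4 h. Each of these lost most of its signal within 4 h at 22 °C. Without the 22 °C array at 0.5 h the slopes of AT3G29970 (-0.58) and AT3G59850 (-0.42) were not called, and without the one at 4 h that of AT3G59850 was -1.003.

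The named genes with the highest slopes at 22 °C were GH9B8, AT5G52390, AT3G63290, AT5G27330, POL and AT1G52720. AT5G52390, of the PAR1 family, had 63.0 at 22 °C, 47.6 at 6 h, 48.3 at 12 h, 23.5 at 24 h and 31.1 at 36 h before cordycepin. It then read 143 at 0.5 h, 215 at 2 h and 254 at 4 h of cordycepin at 22 °C, a slope of 0.23 per hour. POL read 485 at 0.5 h, 649 at 2 h and 766 at 4 h, with a slope of 0.18 ± 0.042 (limma adjusted p = 0.00502). GH9B8 passed the minimum only through these rising values and AT5G52390 only through 22 °C arrays, so no test of the slope of either is given. Without the 22 °C array at 0.5 h none of the slopes of AT3G63290 (0.22), AT5G27330 (0.11), POL (0.12) and AT1G52720 (0.15) was called, and that of AT5G52390 was 0.12. The array median went down over these 22 °C arrays, and centring each array on it raised every 22 °C slope by 0.038.

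In the cold, single series seldom showed a slope. Of the 352, limma called 4 falling after 6 h of cold (1.39% of all tested), 4 after 12 h (2.19%), 0 after 24 h (0.911%) and 3 after 36 h (2.39%). After 24 h of cold an unadjusted p under 0.05 gave 27 falling (7.67%), against 9.44% of all tested. With each array left out in turn the counts ran from 0 to 22, 0 to 16, 0 to 7 and 0 to 15, and all tested reached 4.69%, 5.58%, 4.23% and 5.95%. The mean of the 4 cold slopes, which rests on 12 arrays, fell for 74 (21.0%), against 14.2% of all tested, and rose for 3 (0.852%), against 13.3%. It fell for 17 of the 38 early probe sets. With each array centred on its median, which raised every mean cold slope by 0.014, 57 fell and 15 rose. The share falling then still stood above that of all tested, while the 15 that rose are given without such a share. Without any 1 of 7 of these arrays, the 4 h and 12 h arrays of the 6, 12 and 36 h series and the 12 h array of the 24 h series, the count was 10 to 36. Without any 1 of 6 of them, all but the 12 h array of the 36 h series, the members' share was 2.84% to 4.83%, below the 4.03% to 8.75% of all tested, so the set did not then stand above the array as a whole. Without the 24 h array at 4 h it was 132 (37.5%), against 10.3% of all tested.

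The slope after cordycepin was called different between cold and 22 °C in both directions, mostly one way. It was higher in the cold, meaning less negative or more positive per hour, for 169 of the 352 (48.0%), against 30.5% of all tested, and lower for 12 (3.41%), against 14.6%, and 171 were not called. An hour in the cold and an hour at 22 °C are set side by side here, over 4 to 12 h and 0.5 to 4 h of cordycepin. Without the 22 °C array at 0.5 h the count was 35 (9.94%), against 8.42% of all tested. AT5G05180 had slopes of -0.02 ± 0.013 in the cold and -0.64 ± 0.058 at 22 °C, a difference of 0.62 ± 0.059 (limma adjusted p = 7.00e-05). AT4G24780, the pectate lyase-like gene, had -0.05 ± 0.016 in the cold and -0.45 ± 0.073 at 22 °C (0.40 ± 0.075; limma adjusted p = 0.00206). EXPB3 had -0.03 ± 0.026 in the cold and -0.04 ± 0.12 at 22 °C, a difference of 0.00 ± 0.12 (limma adjusted p = 0.980).

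The change over 12 h of cold was also set beside the change over 12 h of cordycepin from the same starting point. From 12 h of cold, the early probe sets changed by a median of -0.75 with cordycepin and -0.46 without it, and the late ones by -0.30 with it and -0.55 without it. All tested had medians of 0.07 and 0.00. From 24 h of cold, the early probe sets changed by -0.26 with cordycepin and 0.29 without it, the late ones by -0.11 and 0.30, and all tested by 0.08 and 0.02. At 36 h without cordycepin, 51 of the 352 (14.5%) stood below the cells given cordycepin at 24 h and kept 12 h longer, against 55.0% of all tested. The other members stood at or above those cells, and the 36 h array without cordycepin is one that the rule used. Each median compares 2 arrays, with no test.

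**Figure D5:**
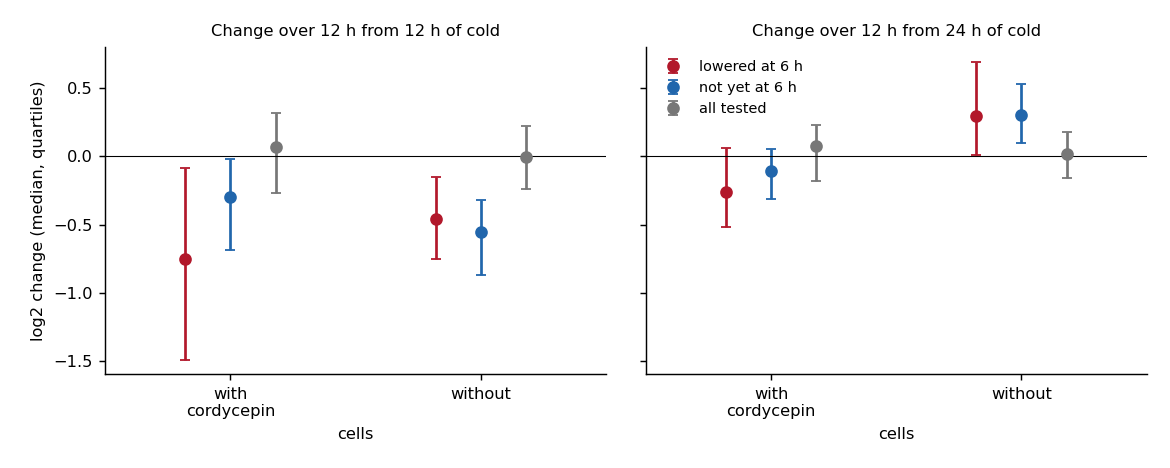
Log2 change over 12 h at 4 °C with cordycepin (left in each panel) and without it (right), from 12 h of cold and from 24 h of cold; points are medians over probe sets and bars the quartiles over probe sets, not replicate error. With cordycepin the late probe sets changed by -0.30 from 12 h and -0.11 from 24 h, and without it by -0.55 and 0.30.

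Across the 352 probe sets, the 22 °C slope and the mean cold slope had a Spearman correlation of 0.28, against 0.29 over all tested. The 22 °C slope had a correlation of 0.06 with the 6 h difference and 0.16 with the mean 24 h and 36 h difference before cordycepin (0.22 and 0.13 over all tested). All points share the same 20 arrays and probe sets are not independent, so these are descriptions with no test.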

How the data were processed

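Total RNA of 20 T87 samples was read on Affymetrix ATH1 arrays. The deposited values are probe set intensities on a linear scale, which the authors made by RMA (affy package), per the submitters' processing notes; versions are not given in the sources used here. The intensity values were turned to log2. Columns were matched to samples by title. Probe sets with exactly 1 gene in the platform table were named by its symbol or locus, and 182 of 183 member genes matched the TAIR10.1 table of RefSeq. No genome build is named for the arrays and no sequence was used here, so positions and promoter motifs were not analysed here. Of the 352 probe sets, 7 end in _s_at and 1 in _x_at, which can bind transcripts of several genes. Named genes with several tested probe sets numbered 1.

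The members, gene lists and rules were chosen with earlier results of these data known. Several families of the results were assembled by locus or symbol after the members had been seen. A single probe set that the choice of members leaves out was removed before any step.

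The 15 arrays with cordycepin were fitted with limma 3.58.1 under R 4.3.3 (lmFit, then eBayes with an intensity trend) with 1 intercept and 1 slope on hours per series, which leaves 5 residual degrees of freedom. The 5 arrays without cordycepin were left out of this fit, since the rule used 4 of them. Its error comes from how far arrays lie off their own line and holds no spread between cultures, and arrays of one series may share a culture. Two-sided p-values were adjusted by Benjamini-Hochberg over the 12846 probe sets and a threshold of 0.05, and the fit was tested on simulated data. Genes were named by rule among those with 1 gene per probe set: the 10 lowest of each class over 24 h and 36 h, the 10 lowest and 5 highest called levels, the 6 lowest and highest called 22 °C slopes, the 5 at each end of the slope difference and of the 12 h minus 24 h difference, the 3 on each side of the threshold, and members of the lists. Other genes named, among them the non-members of each family, were chosen after their values were seen.

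Alternatives were all 20 arrays, no intensity trend, centring, the brightest probe set per gene, other filters, means in place of intercepts, anchored slopes (0 put at the 95th percentile of a series' slopes), other thresholds of the rule, each array left out in turn and, chosen after seeing the data, probe sets under the minimum on all cold arrays left out. Python 3.11.15, pandas 2.3.3 and numpy 2.4.6 prepared the tables and matplotlib 3.10.9 the plots.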

Additional observations from a re-analysis of the deposited data

Results flagged for a closer look

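Differences between conditions within the set passed a test of the difference itself. The 24 h and 36 h level lay below the 6 h level for 57 members by limma, 16.2% of them against 2.46% of all tested, a count that every single array moved by over 1.5 times. The slope after cordycepin was higher in the cold than at 22 °C for 169 members (48.0%), against 30.5% of all tested, and lower for 12 (3.41%), against 14.6%. Without the 22 °C array at 0.5 h of cordycepin it was higher for 35 (9.94%), against 8.42% of all tested.

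The genes at the upper end of the slope difference, cold minus 22 °C in log2 units per hour, were AT2G44370 at 0.68, AT4G21820 at 0.66, AT3G02120 at 0.65, AT3G59850 at 0.62 and AT5G05180 at 0.62. Each of these had its lowest value of the 22 °C series at 4 h of cordycepin. The genes at the lower end were GH9B8 at -0.56, AT3G63290 at -0.27, AT5G52390 at -0.24, AT5G27330 at -0.19 and AT1G52720 at -0.17. Each of these had its highest value of the fitted 22 °C arrays at 4 h. GH9B8 passed the intensity minimum only through those arrays at 2 h and 4 h, and AT5G52390 only through 22 °C arrays. The differences of these 2 genes are therefore given with no test.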

How the results depend on the processing

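Counts of members called are given here as percent of the members tested, with the share of all tested after them in brackets. The members' share stood above that of all tested in all 23 alternatives for the 24 h and 36 h level, the 22 °C slope and the slope difference, and in all 22 for the 12 h level. For the 6 h level it did so in 20 of 22, not with centring or without the 6 h array at 4 h of cordycepin, and for the difference of long and 6 h cold in 21 of 22, with 0% and 0% in the other. For the mean cold slope it did so in 16 of 22. The slopes of single cold series, below all tested in the reported fit, stayed below in 8, 15, 21 and 20 of 22 alternatives at 6, 12, 24 and 36 h.

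With all 20 arrays, which include those the rule used, 79.5% of members lay lower at 24 h and 36 h than at 6 h (24.5%; 16.2% of members in the reported fit), the slope fell for 17.0% after 6 h of cold (3.46%), 13.6% after 12 h (7.29%) and 0% after 36 h (0.187%), and the mean cold slope for 41.8% (15.2%). With means of 3 arrays in place of intercepts 55.7% lay lower at 24 h and 36 h than at 6 h (16.5%). With the filter at the 60th percentile of means it was 28.9% (3.27%), and slopes fell for 1.73% at 6 h (1.30%), 2.31% at 12 h (2.28%) and 1.73% at 36 h (2.15%). Centring gave 43.8% lower at 6 h (44.4%) and 0.568% falling at 12 h (1.84%), and no intensity trend also gave 0.568% there (1.67%). The brightest probe set per gene gave 0% falling at 12 h (2.20%) and 0% at 36 h (2.02%), and no filter 1.42% at 36 h (1.49%). Anchored slopes gave 91.2% falling at 22 °C (82.8%), 73.9% (59.4%), 38.9% (32.5%), 9.09% (14.6%) and 31.8% (28.2%) in the 6, 12, 24 and 36 h series, 95.5% for the mean cold slope (85.0%) and 83.0% for the difference (74.1%). Without probe sets under the minimum on all cold arrays, an alternative chosen after seeing the data, the 24 h and 36 h level was lower for 74.5% (37.7%), the 22 °C slope fell for 55.2% (32.5%) and the slope difference was higher for 49.0% (31.0%). A rule threshold of 0.8 gave 675 members, of 1.5 gave 81, and the 22 °C level taken from the line through the cordycepin arrays gave 649, of which 177 are shared (50.3% of the 352 and 27.3% of the 649). The cause was not tested.

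With each array left out, the 24 h and 36 h level was lower for 46.0% to 80.7% (20.1% to 39.1%), the 6 h level for 0% to 29.3% (0% to 16.5%), the 12 h level for 1.99% to 61.1% (0.304% to 30.9%) and the difference of long and 6 h cold for 0% to 52.0% (0% to 8.24%). Slopes fell for 13.9% to 59.1% at 22 °C (8.98% to 36.0%), for 0% to 6.25%, 0% to 4.55%, 0% to 1.99% and 0% to 4.26% in the 6, 12, 24 and 36 h series (highest 4.69%, 5.58%, 4.23% and 5.95%) and for 2.84% to 37.5% in their mean (4.03% to 18.04%), and the slope difference was higher for 9.94% to 56.5% (8.42% to 35.1%).

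Some named genes changed sign. With all 20 arrays the level difference was -0.55 for AT4G12010, -0.067 for WRKY22, -0.41 for UGT85A2, -0.50 for AT1G80450 and -0.74 for AT1G12320. With each array left out it ran from -1.37 to 0.18 for AT4G18630, -0.79 to 1.27 for AT5G48800, -0.98 to 0.46 for AT4G24790, -2.13 to 0.50 for AT3G22540 and -1.52 to 0.32 for AT2G44380. With anchored slopes the 22 °C slope was -0.043 for AT5G27330, -0.0068 for AT5G52390, -0.014 for AT3G63290, -0.080 for AT1G52720 and -0.053 for POL, and the slope difference was 0.00 for AT5G27330 and 0.014 for AT1G52720. Of the other values of these named genes, 159 level differences kept their sign and call under the alternatives that leave out no array, 7 lost and 7 gained a call, 72 slopes at 22 °C kept both with 1 lost, and 60 slope differences kept both with 3 lost. With an array left out, 372 level differences kept both, 31 lost and 11 gained a call, 170 slopes at 22 °C kept both with 10 lost, and 142 slope differences kept both with 8 lost. The promoter motif description was not run, since no sequence was used here. The number of arrays limits the precision.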
